A study of Rattus norvegicus with 60 samples.

Results

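P2ry12 encodes the ADP receptor of microglia, the resident macrophages of the brain, and is described here with 9 further genes that are used to mark these cells. The 10 genes are measured by 13 probe sets, which are all those that the array annotation gives to exactly 1 of the 10 symbols, of 31042 probe sets tested and 14217 genes with a single symbol. The 10 genes were chosen from earlier results of the same arrays, so what was already known of them is given as a description. RNA was measured on 60 arrays of SD rats, 20 each from the hippocampus, the cortex and the striatum. In each region 5 arrays came from rats given lithium chloride at 0.2% in chow (LiCl), 5 from rats given plain chow (chow vehicle), 5 from rats injected under the skin once daily with lamotrigine at 30 mg/kg, and 5 from rats injected with its vehicle (injection vehicle), all for 21 days. The labels state neither age nor sex. The arrays of the injection arm come from 10 animals that each gave all 3 regions, so its regions are not independent repeats, and the 60 arrays come from 24 animals by the numbers in the labels. In the chow arm, LiCl and chow vehicle arrays come from 7 animals each by these numbers. Its cortex and striatum come from the same animals, and its hippocampus shares some of them. So the regions of the chow arm are not independent repeats either. Levels are log2 intensities of RMA values. They rank arrays within a probe set and not 1 gene against another.

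Microglia sense ADP and ATP from damaged or active cells through P2ry12 and steer their processes towards the source, and the receptor is known to be lowered when the cells become reactive. Cx3cr1 is the receptor for the neuronal chemokine Cx3cl1, and Csf1r is the receptor for Csf1 and Il34 on which microglial survival depends. Itgam is the alpha chain of complement receptor 3. Laptm5 is a lysosomal membrane protein of leukocytes, Ctss is a lysosomal cysteine protease, and C1qa and C1qb are chains of complement component C1q. Aif1 (Iba1) binds actin and calcium, and Rac2 is a small GTPase of blood-derived cells that acts in the NADPH oxidase. In whole tissue, fewer microglia and less RNA per microglial cell cannot be told apart.

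The factor PU.1 (Spi1) binds purine-rich sites with the core GAGGAA and is known to control many genes of macrophages and microglia. The window from 250 bases before to 50 bases after the start of transcription was searched for this core on both strands (GAGGAA and its complement TTCCTC) in the promoters of RefSeq, build GRCr8. Of the 10 genes, 7 were matched, and 5 of these held the core, against 27.6% of all 33469 promoters. Csf1r, Itgam and C1qb held 2 copies each, Laptm5 and Ctss held 1 each, and Cx3cr1 and C1qa held none. P2ry12, Aif1 and Rac2 were not matched. The promoters of Laptm5 (chr5:148371630-148371929, plus strand), Ctss (chr2:185775146-185775445, plus strand) and C1qb (chr5:154407778-154408077, minus strand) are shown as examples of the 5 that held the core. Capitals mark the core, which is a match of letters and no measured site.
Laptm5 promoter: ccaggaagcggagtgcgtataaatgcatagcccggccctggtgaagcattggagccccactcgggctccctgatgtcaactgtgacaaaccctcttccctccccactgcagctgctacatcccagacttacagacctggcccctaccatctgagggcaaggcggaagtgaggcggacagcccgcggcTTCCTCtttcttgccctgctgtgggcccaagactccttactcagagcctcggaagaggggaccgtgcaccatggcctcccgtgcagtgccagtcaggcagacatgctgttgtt
Ctss promoter: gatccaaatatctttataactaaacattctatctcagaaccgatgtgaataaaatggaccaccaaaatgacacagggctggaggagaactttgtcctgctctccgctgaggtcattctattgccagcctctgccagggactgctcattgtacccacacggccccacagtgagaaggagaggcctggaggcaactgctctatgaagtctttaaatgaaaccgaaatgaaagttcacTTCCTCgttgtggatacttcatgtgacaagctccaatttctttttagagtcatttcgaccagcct
C1qb promoter: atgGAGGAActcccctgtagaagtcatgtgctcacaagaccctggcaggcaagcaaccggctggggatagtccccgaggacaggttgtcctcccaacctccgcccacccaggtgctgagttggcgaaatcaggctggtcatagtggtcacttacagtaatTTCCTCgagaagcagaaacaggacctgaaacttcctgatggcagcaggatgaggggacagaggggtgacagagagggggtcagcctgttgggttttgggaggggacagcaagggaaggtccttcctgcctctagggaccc

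Precision is limited by the 5 arrays per group. Median intensities lay between 93.8 and 101.4 on all arrays, and no pair of arrays held identical values. Region markers stood as labelled: 5 of 5 striatal markers were higher in the striatum than in the cortex (median difference 5.17). Choroid plexus genes varied widely between hippocampus arrays (5.35 to 8.27) and between striatum arrays (5.72 to 9.15). In the striatum they averaged 7.49 ± 1.39 with LiCl and 6.05 ± 0.29 with chow vehicle (SD), and no striatum array was chosen for leaving out by these genes. In the hippocampus LiCl replicate 2 and chow vehicle replicate 5 were each the highest of their group. The striatum arrays of LiCl replicate 3 and chow vehicle replicate 5 stood apart in C1qa. Without those arrays the LiCl comparisons of the hippocampus and striatum called 0 of the 13 probe sets, as with them. With all arrays only 0.235% and 0% of all probe sets were called there. A call of a member was thus unlikely in advance, and the part of those arrays cannot be judged from this.

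P2ry12 was lower in lamotrigine rats than in injection vehicle rats in all 3 regions, on both of its probe sets. The differences of the other 11 probe sets went both ways and ran from -0.34 to 0.28 in the hippocampus, from -0.23 to 0.09 in the cortex and from -0.11 to 0.12 in the striatum. In the hippocampus probe set 1380822_at read 8.93, 8.52, 8.26, 8.86 and 9.05 on the lamotrigine arrays, against 9.03, 9.09, 9.52, 9.51 and 9.56 on the injection vehicle arrays. The lamotrigine values lay lower on average, and the highest of them lay within the injection vehicle range. In the cortex it read 8.77, 8.11, 8.74, 9.05 and 8.80 with lamotrigine, against 9.29, 9.35, 9.36, 8.91 and 9.38 with injection vehicle, and in the striatum 8.59, 8.61, 8.84, 8.91 and 8.87 against 9.03, 9.07, 9.14, 9.65 and 9.26. In the striatum the groups did not overlap, and in the cortex they overlapped through 1 injection vehicle array at 8.91. The differences of lamotrigine minus injection vehicle were -0.62 ± 0.15 in the hippocampus (SE, 1.53-fold lower), -0.57 ± 0.14 in the cortex and -0.47 ± 0.10 in the striatum. The second probe set, 1368728_at, gave -0.51 ± 0.13, -0.68 ± 0.13 and -0.46 ± 0.13 in the same order of regions.

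**Figure D1:**
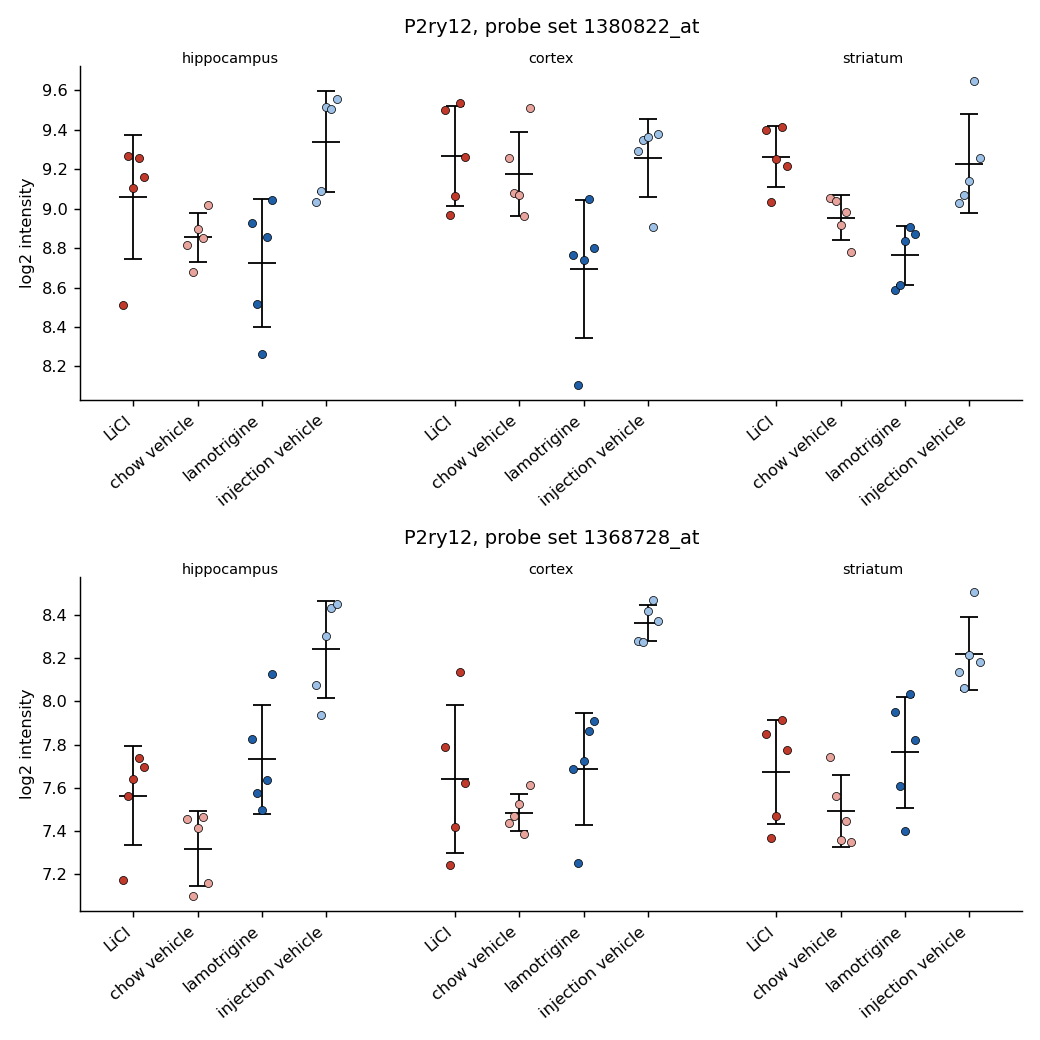
P2ry12 log2 intensity (y axis) on each array for both probe sets, by region and group (x axis), with points for the 5 arrays of a group and bars for the mean and 1 SD. The lamotrigine means lie lower than the injection vehicle means in the 3 regions on both probe sets, while the chow vehicle means of 1368728_at are the lowest, from 7.32 to 7.49.

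Averaged over the 3 regions of an animal, P2ry12 (1380822_at) was 8.73 ± 0.22 in lamotrigine rats and 9.28 ± 0.12 in injection vehicle rats (SD, n = 5 animals each). The lamotrigine animals ranged from 8.41 to 8.94 and the injection vehicle animals from 9.12 to 9.40, without overlap. On 1368728_at the lamotrigine animals ranged from 7.48 to 7.95 and the injection vehicle animals from 8.09 to 8.47, again without overlap. None of the other 11 probe sets separated the animals of the injection arm: their differences of lamotrigine minus injection vehicle ran from -0.19 for Aif1 (1368558_s_at) to 0.12 for Cx3cr1, and each overlapped. How many of all 31042 probe sets separate animals or groups without overlap was not counted. Statements of non-overlap in this text are therefore descriptions only. These P2ry12 values are a description with no test, since the gene was chosen with its earlier values known. Over all 31042 probe sets, the P2ry12 difference of 1380822_at had rank 57 from the lowest in the hippocampus, 42 in the cortex and 91 in the striatum. In limma across all probe sets 0 of 13 probe sets were called for lamotrigine in each region, at an adjusted p under 0.05, where 0.00322% of all probe sets were called in the hippocampus, 0% in the cortex and 0% in the striatum. Leaving aside P2ry12, an unadjusted p under 0.05 was reached by 4 of 11 probe sets in the hippocampus (Cx3cr1, Rac2, Aif1 1368558_s_at and Ctss), 3 in the cortex (Csf1r, Ctss and Rac2) and 0 in the striatum. Over all probe sets it was reached by 3063 (9.87%), 1799 (5.8%) and 1193 (3.84%). The other 11 probe sets were also chosen with earlier results known, so these counts are no result about them. In the hippocampus Cx3cr1 and Rac2 were higher and Aif1 and Ctss lower, and in the cortex Csf1r, Ctss and Rac2 were lower.

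The other 11 probe sets were lower with lamotrigine in 9 of 11 cases in the hippocampus (median -0.11), 10 of 11 in the cortex (median -0.15) and 6 of 11 in the striatum (median -0.03). Over all probe sets the medians were 0.01, 0.01 and 0.00. Cx3cr1, the gene often read beside P2ry12 as a marker of resting microglia, differed by 0.28 ± 0.10 in the hippocampus (lamotrigine 7.71 ± 0.09, injection vehicle 7.43 ± 0.17), by -0.03 ± 0.07 in the cortex and by 0.12 ± 0.06 in the striatum, and it was not called (adjusted p = 0.362 in the hippocampus, limma). Its hippocampal arrays ran from 7.60 to 7.82 with lamotrigine and from 7.17 to 7.57 with injection vehicle, without overlap. Aif1 (1368558_s_at) differed in the same direction as P2ry12, by -0.28 ± 0.13, -0.23 ± 0.12 and -0.07 ± 0.16 in hippocampus, cortex and striatum. Ctss differed by -0.15 ± 0.07, -0.18 ± 0.08 and -0.09 ± 0.10 in hippocampus, cortex and striatum, and Csf1r by -0.16 ± 0.09, -0.21 ± 0.10 and -0.06 ± 0.10. Itgam, dim and variable, differed by -0.34 ± 0.17, -0.15 ± 0.13 and 0.02 ± 0.20, and Rac2 by 0.19 ± 0.08, -0.17 ± 0.07 and 0.04 ± 0.13. Among 33 further microglial genes measured, 0 were called for lamotrigine in any region, with medians of -0.05, -0.09 and 0.04. Among 21 genes of activated microglia, such as Cd68, Spp1 and Lgals3, 0 were called either, and among 20 partners of the 10 genes, such as Cx3cl1, Csf1 and Il34, 0 were called.

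**Figure D2:**
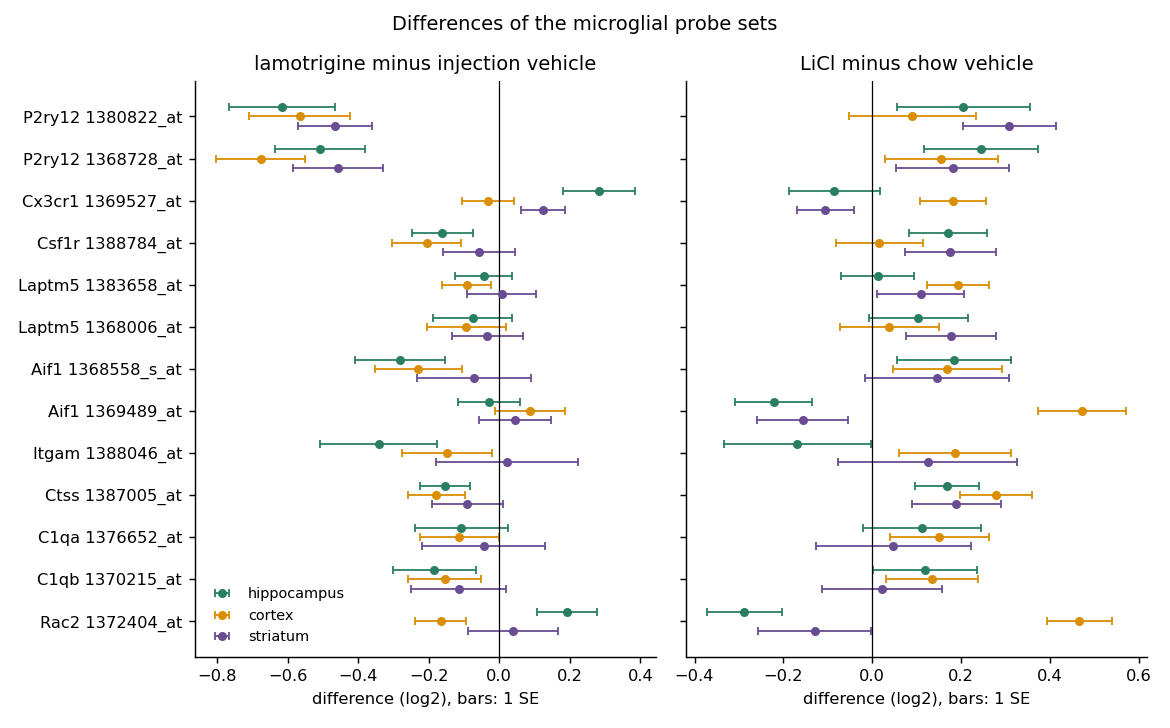
Difference in log2 intensity (x axis) of the 13 probe sets (y axis) for lamotrigine minus injection vehicle and for LiCl minus chow vehicle, with colours for regions and bars of 1 SE. P2ry12 stands at -0.68 to -0.46 with lamotrigine, and Rac2 and Aif1 (1369489_at) stand at 0.47 each with LiCl in the cortex.

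P2ry12 was also set against the mean of the other 9 genes on each array. In the hippocampus P2ry12 (1380822_at) minus that mean was 0.40 ± 0.35 in lamotrigine arrays and 0.93 ± 0.08 in injection vehicle arrays (SD, n = 5). In the cortex the values were 0.41 ± 0.36 and 0.83 ± 0.17 in the same order, and in the striatum 0.28 ± 0.22 and 0.73 ± 0.11. On 1368728_at they were -0.59 ± 0.28 and -0.17 ± 0.08 in the hippocampus and -0.59 ± 0.29 and -0.06 ± 0.09 in the cortex. In the striatum they were -0.72 ± 0.38 and -0.28 ± 0.01. Only the differences between groups are read from these values, and not their sign. The mean of the other 9 genes itself was 8.33 ± 0.09 with lamotrigine and 8.41 ± 0.20 with injection vehicle in the hippocampus, 8.28 ± 0.14 and 8.42 ± 0.06 in the cortex, and 8.48 ± 0.15 and 8.50 ± 0.16 in the striatum. This is a description with no test, since P2ry12 was chosen with its values known. In the hippocampus and striatum the other genes differed in both directions, and these differences partly offset each other in their mean. In the cortex 10 of the 10 genes were lower with lamotrigine, P2ry12 among them.

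**Figure D3:**
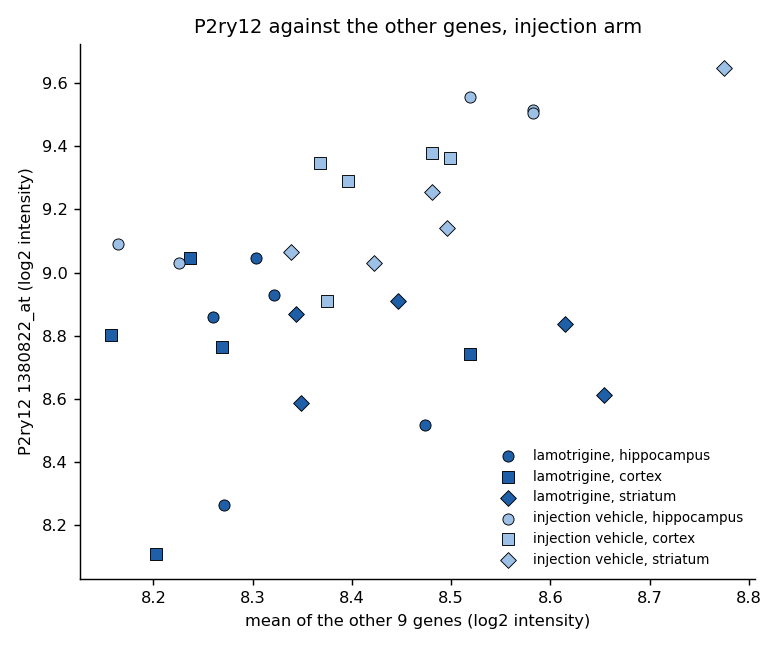
P2ry12 (1380822_at, y axis, log2 intensity) against the mean log2 intensity of the other 9 genes (x axis) on the 30 arrays of the injection arm. Most lamotrigine arrays (dark) lie lower than injection vehicle arrays (light) at similar x values, and marker shapes give the region.

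Values of other cell types are given beside these. In the hippocampus, border macrophage genes averaged 5.39 ± 0.19 with lamotrigine and 5.27 ± 0.19 with injection vehicle, and blood leukocyte and erythrocyte genes averaged 6.01 ± 0.42 and 5.62 ± 0.11. In the cortex, endothelial genes averaged 8.02 ± 0.22 with lamotrigine and 8.18 ± 0.07 with injection vehicle. Oligodendrocyte genes averaged 11.97 ± 0.25 with lamotrigine and 12.18 ± 0.12 with injection vehicle in the hippocampus, where 6 of 6 were lower (median -0.22). In the striatum 8 of 8 neuronal and 6 of 6 oligodendrocyte genes were lower with lamotrigine (medians -0.09 and -0.06), and 7 of 7 astrocyte genes were higher (median 0.10). Choroid plexus genes averaged 6.10 ± 0.60 with lamotrigine and 6.65 ± 1.30 with injection vehicle in the hippocampus, and meningeal genes averaged 6.30 ± 0.92 and 6.78 ± 0.58 in the cortex. With lamotrigine several lists went the other way in other regions. In the hippocampus 7 of 7 endothelial, 6 of 8 meningeal and 6 of 8 neuronal genes were higher (medians 0.08, 0.18 and 0.03). In the cortex 6 of 7 border macrophage and 6 of 7 astrocyte genes were lower (medians -0.14 and -0.10). There 5 of 6 oligodendrocyte genes were higher (median 0.03), as were 5 of 6 choroid plexus genes in the striatum (median 0.22). None of these lists held a called gene in the lamotrigine comparisons, and their part in the P2ry12 difference was not tested.

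The chow groups place the injection arm. On 1380822_at the lamotrigine means were 8.72 ± 0.32, 8.69 ± 0.35 and 8.76 ± 0.15 in hippocampus, cortex and striatum, and the chow vehicle means were 8.85 ± 0.12, 9.18 ± 0.21 and 8.95 ± 0.11. On 1368728_at the lamotrigine means of 7.73 ± 0.25, 7.69 ± 0.26 and 7.76 ± 0.26 lay above the chow vehicle means of 7.32 ± 0.17, 7.49 ± 0.09 and 7.49 ± 0.16. So the 2 probe sets place lamotrigine on different sides of chow vehicle, and both place injection vehicle highest of these 3 groups. The LiCl means of 1380822_at in the cortex (9.27) and striatum (9.26) were as high as those of injection vehicle (9.26 and 9.23). In the hippocampus the LiCl mean of this probe set was lower, 9.06 against 9.34. On 1368728_at the LiCl means of 7.56, 7.64 and 7.67 lay below the injection vehicle means of 8.24, 8.36 and 8.22 in hippocampus, cortex and striatum. Injection vehicle minus chow vehicle on 1368728_at was 0.92 ± 0.13, 0.88 ± 0.13 and 0.73 ± 0.13, and on 1380822_at it was 0.49 ± 0.15, 0.08 ± 0.14 and 0.27 ± 0.10. This comparison shares the injection vehicle arrays with the lamotrigine comparison, so the P2ry12 values are set side by side and not taken as further evidence. Animals of the arms differ in route, handling and possibly processing, which cannot be told apart.

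In the injection vehicle rats against the chow vehicle rats, 5 of 13 probe sets were called in the hippocampus, 3 in the cortex and 1 in the striatum, all higher, where 18.5%, 18.9% and 6.83% of all probe sets were called. The 1 in the striatum was a P2ry12 probe set. Besides P2ry12, Ctss was higher by 0.33 ± 0.07 (adjusted p = 0.00279), Aif1 (1368558_s_at) by 0.39 ± 0.13 (adjusted p = 0.0382) and Csf1r by 0.27 ± 0.09 (adjusted p = 0.0332) in the hippocampus by limma. In the cortex Cx3cr1 was higher by 0.25 ± 0.07 (adjusted p = 0.0196) and Rac2 by 0.21 ± 0.07 (adjusted p = 0.0453). Genes of other cells differed between the same arms: in the hippocampus 3 of 8 neuronal genes were called higher (Gad2 by 1.21, Syt1 by 0.86 and Nefl by 0.16) and 1 lower (Snap25), with a median of -0.06, and 3 of 7 endothelial genes were called lower. Their part in these values was not tested. Of 33 further microglial genes, 2 were called higher (Sall1, Cd53) and 1 lower (P2ry6) in the hippocampus, and 2 lower (Coro1a, Vsir) in the cortex. In the hippocampus 4 of 20 partners were called lower (Cx3cl1, Csf1, Ncf1, Ncf4), and of 21 genes of activated microglia 1 was called higher (Cd9) and 3 lower (Ccl4, Il1b, Nos2). In the cortex 1 partner was called higher (Rac1) and 1 activated gene lower (Cd14). These counts lie near or under the shares of all probe sets and are no result about these lists. With the spread of each array, the distance between the quartiles of its log2 values, as a covariate, 0 of the 13 probe sets passed in the hippocampus. There the spread ran from 3.553 to 3.64 with injection vehicle and from 3.43 to 3.562 with chow vehicle. So this covariate can hardly be separated from the arm. P2ry12 (1380822_at) lost its call in the hippocampus without chow vehicle replicate 1 or 2 or injection vehicle replicate 3, 4 or 5. Leaving out single arrays gave 2 to 7 calls in the hippocampus, with 2 without chow vehicle replicate 1 or 2 or injection vehicle replicate 4 or 5 and 3 without chow vehicle replicate 3 or injection vehicle replicate 3. In the cortex they gave 1 to 3, with 1 without injection vehicle replicate 1.

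In the cortex 3 of the 13 probe sets were called higher with LiCl than with chow vehicle, where 13.4% of all probe sets were called, and all 13 values were higher. Rac2 read 7.51, 7.20, 7.34, 7.53 and 7.40 on the LiCl arrays, against 6.97, 6.78, 6.94, 6.94 and 7.01 on the chow vehicle arrays. The groups did not overlap, and the difference was 0.47 ± 0.07 (adjusted p = 0.00209, limma). Aif1 (1369489_at), a dim probe set, read from 6.37 to 6.48 with LiCl and from 5.81 to 6.12 with chow vehicle and differed by 0.47 ± 0.10 (adjusted p = 0.00651). Its brighter probe set 1368558_s_at differed by 0.17 ± 0.12 and did not pass, so the 2 probe sets of Aif1 disagree. Ctss differed by 0.28 ± 0.08 (adjusted p = 0.0282), with overlapping groups. P2ry12 differed by 0.09 ± 0.14 (adjusted p = 0.703) and 0.16 ± 0.13 (adjusted p = 0.424) on its 2 probe sets and was not called. Earlier results of the same arrays were known when these genes were chosen, so the 13 of 13 is no independent evidence.

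**Figure D4:**
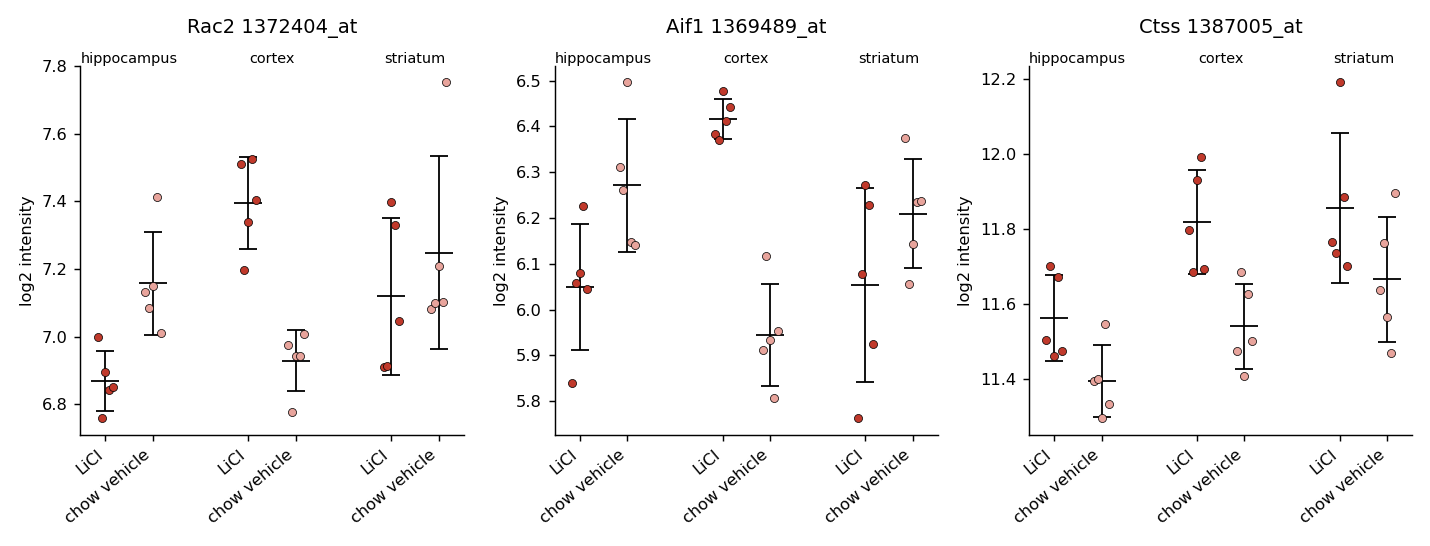
Log2 intensity (y axis) of Rac2, Aif1 (1369489_at) and Ctss on each array of the chow arm, LiCl beside chow vehicle in each region, with the mean and 1 SD. In the cortex the LiCl arrays of Rac2 and Aif1 lie above all chow vehicle arrays, and in the hippocampus and striatum their means lie below those of chow vehicle.

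Few partners and further microglial genes were called in the LiCl cortex, beside the 13.4% of all probe sets. Csf1, a ligand of Csf1r, rose by 0.47 ± 0.09 (adjusted p = 0.0037) and Cybb, a subunit of the NADPH oxidase that Rac2 acts on, rose by 0.57 ± 0.17 (adjusted p = 0.031), which makes 2 of 20 partners. Of 33 further microglial genes Slc2a5 rose and Coro1a fell, and of 21 genes of activated microglia 4 rose: Lgals3, Clec7a, Ccl4 and Nos2, by 0.38, 0.29, 0.38 and 0.40. The first 2 of these counts lie under the share of all probe sets, and nothing particular to the 3 lists is read from them. The LiCl arrays of the cortex also had less spread between quartiles, 3.37 ± 0.06, than the chow vehicle arrays with 3.58 ± 0.02. The ranges, 3.289 to 3.445 and 3.557 to 3.613, did not overlap. A fit with this covariate can therefore hardly separate spread from LiCl. With that spread as a covariate 0 of the 13 probe sets and 0 of all probe sets passed, and the differences were 0.36 for Rac2 (adjusted p = 0.357), 0.05 for Aif1 (1369489_at, adjusted p = 0.925) and 0.47 for Ctss (adjusted p = 0.297). Ctss lost its call when 1 of LiCl replicates 1, 3 and 4 or of chow vehicle replicates 1 and 3 was left out (adjusted p up to 0.0702). Choroid plexus genes averaged 5.83 ± 0.24 with LiCl and 5.34 ± 0.08 with chow vehicle, neuronal genes 10.74 ± 0.04 and 10.94 ± 0.08, and meningeal genes 6.84 ± 0.51 and 6.42 ± 0.31. The first 2 of these lists did not overlap between the groups, and the part of these cells in the values was not tested.

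In the LiCl hippocampus and striatum 0 of the 13 probe sets were called, where 0.235% and 0% of all probe sets were called. An unadjusted p under 0.05 was reached by 3 of 13 in the hippocampus and by 1 of 13 in the striatum, beside 4827 and 3828 of all probe sets. The 1 in the striatum was P2ry12 (1380822_at). Rac2 differed by -0.29 ± 0.08 in the hippocampus (adjusted p = 0.125), with means of 6.87 on LiCl arrays and 7.16 on chow vehicle arrays and no overlap, and by -0.13 ± 0.13 in the striatum. P2ry12 (1380822_at) differed by 0.21 ± 0.15 in the hippocampus (95% interval -0.11 to 0.52, adjusted p = 0.534) and by 0.31 ± 0.10 in the striatum (0.09 to 0.53, adjusted p = 0.275). The LiCl effect differed between the 3 regions for Rac2 (F test, limma, adjusted p = 0.000141) and Aif1 1369489_at (adjusted p = 0.000152), where 17.2% of all probe sets did so, and for no other of the 13. With quantile normalization Cx3cr1 passed as well (adjusted p = 0.0284, against 0.0757). With the spread covariate, which can hardly be separated from LiCl in the cortex, neither Rac2 nor Aif1 passed (adjusted p = 0.677 and 0.997). For lamotrigine 0 of 13 effects differed between regions, beside 0% of all probe sets, and for injection vehicle against chow vehicle 0 of 13, beside 1.88%.

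Without drug, P2ry12 was not called between regions, while several other genes were higher in the striatum. In the contrast of striatum minus hippocampus 7 of 13 probe sets were called, all higher, where 50.9% of all probe sets were called. C1qa (0.25 ± 0.10, adjusted p = 0.0265), C1qb (0.24 ± 0.08, adjusted p = 0.0097), Cx3cr1 (0.20 ± 0.05, adjusted p = 0.00119), Csf1r (0.19 ± 0.06) and Ctss (0.17 ± 0.06) were among them, as were both probe sets of Laptm5. Striatum minus cortex called 5 of 13, all higher, beside 55.9% of all probe sets, and hippocampus minus cortex called 1 of 13, Csf1r (-0.20 ± 0.06), beside 42.4%. The shares of the 13 probe sets lie near or under those of all probe sets and say nothing particular of microglial genes. P2ry12 was not called in any of the 3 contrasts, with differences of 1380822_at from -0.13 to -0.01 and of 1368728_at from -0.14 to 0.07. With injection vehicle arrays alone 1 of 13 was called for striatum minus hippocampus and 0 for striatum minus cortex.

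Array-to-array variation within groups tells whether the genes move together, as a description over 60 arrays that share animals and may share a normalization. Deviations from the group mean were correlated with r from 0.62 to 0.83 (median 0.69) among Csf1r, Laptm5, Aif1 (1368558_s_at), Ctss, C1qa and C1qb, a set grouped after the correlations were seen. P2ry12 (1380822_at) correlated with these 6 genes with r from 0.17 to 0.42 (0.49 for the second Laptm5 probe set, 1368006_at) and with their mean with r = 0.32 (rho = 0.37, and r = 0.41 without the 2 arrays farthest from the median), while its 2 probe sets correlated with each other with r = 0.72. Cx3cr1 correlated with the 6 genes with r from 0.18 to 0.39, Itgam from 0.13 to 0.35 and Rac2 from 0.37 to 0.58. Within regions, P2ry12 against the mean of the 6 gave r = 0.43 in the hippocampus, 0.31 in the cortex and 0.26 in the striatum, where the 6 genes themselves had medians of 0.64, 0.60 and 0.78. The 2 striatum arrays high in C1qa, at 10.39 and 10.38, had P2ry12 at 9.25, inside the range of its group, and at 8.78, the lowest of its group. P2ry12 was less closely correlated with the 6 genes than they were with each other, and so were Cx3cr1, Itgam and Rac2. Because the 6 were grouped for their high correlations, a gene outside the set lies lower by construction. No conclusion about P2ry12 is drawn from that contrast.

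**Figure D5:**
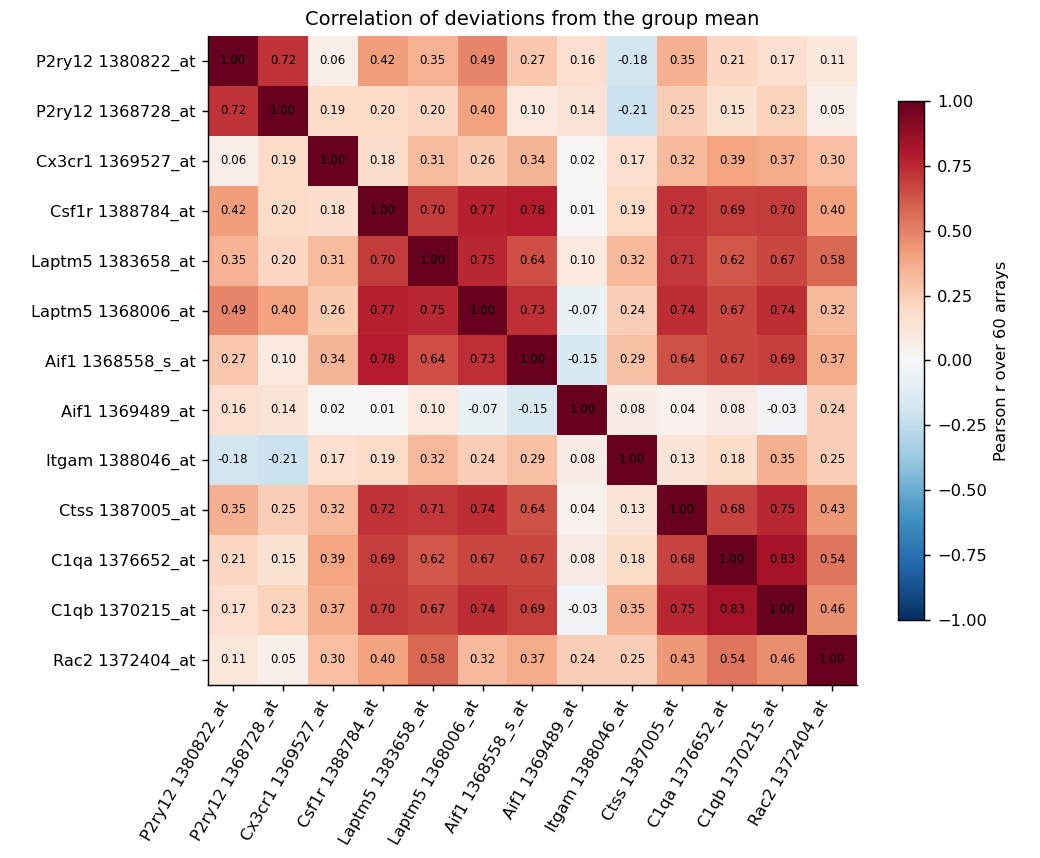
Pearson r (colour and number in each cell) between deviations from the group mean over 60 arrays, for the 13 probe sets on both axes. Csf1r, Laptm5, Aif1 (1368558_s_at), Ctss, C1qa and C1qb form a block from 0.62 to 0.83, and the P2ry12 rows are paler outside their own pair at 0.72.

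Among 14216 other genes, Csf1r stood at rank 78 of likeness to P2ry12, Ctss at 230, Laptm5 at 252, Aif1 at 827, C1qa at 1844 and C1qb at 2668. Rac2 stood at 4271, with r = 0.83 in the cortex, -0.19 in the hippocampus and -0.07 in the striatum, and Cx3cr1 stood at 5976 and Itgam at 13002. The 10 genes most like P2ry12 by Pearson r were Pomk, Opa3, Clic2, C10h17orf58, Il33, Ppm1g, Uts2r, Cyp4f1, Ift81 and Rnf151, with r from 0.54 down to 0.48, and the lowest 3 were Gen1 (-0.57), Taok1 (-0.55) and Smgc (-0.50). The median r of all genes was 0.03 and the 95th percentile 0.28. Csf1r, Ctss and Laptm5 lay above that percentile (r = 0.42, 0.35 and 0.35), and Aif1, C1qa, C1qb, Rac2, Cx3cr1 and Itgam lay below it.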

How the data were processed

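RNA from 3 brain regions of rats was measured on 60 arrays, 5 in each of 12 groups named in the labels. A tissue label that says mouse and a label of constant delivery go against the organism and the design text, which were followed. The deposited values are linear intensities from RMA, run by the authors in R 2.7.2 per the submitters' notes. No source used here says whether the 60 arrays were normalized as 1 set. Intensities ran from 6.93 to 28582.45, and log2 was taken with no pseudocount. Symbols come from the platform annotation, and 57 control probe sets were left out.

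Each region was fitted with limma 3.58.1 in R 4.3.3 (eBayes with intensity trend) over its 20 arrays. Region contrasts and F tests used 60 arrays, with animals as random blocks (consensus correlation 0.133). Adjustment was by Benjamini-Hochberg over 31042 probe sets, and calls were made under 0.05. The fits were tested on simulated data. Nothing but the numbers in the labels says that arrays of a group are separate animals, so p-values measure the spread between these arrays.

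Named are the 10 genes with every probe set, the 10 most and 3 least like P2ry12 by r (1 probe set per gene, the highest mean), partners, and list genes called in a comparison described. Genes, lists and tests were chosen with earlier results of these data known. Alternatives covered centring, quantile normalization, array spread, dim probe sets (mean log2 under 6), the intensity trend, blocks, left-out arrays and single vehicle groups.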

Additional observations from a re-analysis of the deposited data

Results flagged for a closer look

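Of 156 groups of 5 arrays, 12 held a lone array by Dixon's criterion (gap over range above 0.71), where chance gives about 1 in 20 groups. P2ry12 (1380822_at) was lowest at 8.51 on LiCl replicate 1 of the hippocampus (nearest 9.11) and at 8.91 on injection vehicle replicate 4 of the cortex (nearest 9.29). In the striatum, C1qa was highest at 10.39 on LiCl replicate 3 and at 10.38 on chow vehicle replicate 5, which was also highest in C1qb at 9.47 and in Rac2 at 7.75. Laptm5 (1368006_at) was highest at 8.13 on injection vehicle replicate 4 of the striatum. Aif1 (1368558_s_at) was highest at 8.82 on lamotrigine replicate 3 of the cortex and at 8.31 on chow vehicle replicate 4 of the hippocampus. Rac2 was highest at 7.12 on injection vehicle replicate 3 of the hippocampus, and lowest in the cortex at 7.04 on injection vehicle replicate 4 and at 6.78 on chow vehicle replicate 2.

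The LiCl effect differed between regions for Aif1 (1369489_at, limma F test, adjusted p = 0.0001525) and for Rac2 (adjusted p = 0.000141), with differences of LiCl minus chow vehicle of 0.47 each in the cortex, and -0.22 and -0.29 in the hippocampus.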

How the results depend on the processing

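Of 1255 values under alternatives other than single left-out arrays, 1127 counted as unchanged. A difference counted so if it kept its direction and side of the threshold. A count of called probe sets could move within a set factor, and a correlation by less than the spread between regions. P2ry12 (1380822_at) stayed lower with lamotrigine than with injection vehicle under all alternatives run, from -0.63 to -0.43 in the hippocampus, -0.61 to -0.55 in the cortex and -0.47 to -0.46 in the striatum, and with single arrays left out from -0.70 to -0.50, -0.65 to -0.42 and -0.52 to -0.36. With array spread as a covariate, members called came to 0 for injection vehicle minus chow vehicle in the hippocampus, 0 for LiCl in the cortex, 2 for hippocampus minus cortex, 1 for striatum minus cortex and 0 for LiCl effects that differ between regions. P2ry12 then differed by -0.11 and -0.048 for LiCl in hippocampus and cortex, by 0.14 for injection vehicle minus chow vehicle in the hippocampus (adjusted p = 0.881, limma) and by 0.024 for striatum minus hippocampus. Under it Csf1r (-0.042) and Aif1 (-0.081) reversed for injection vehicle minus chow vehicle in the hippocampus, and Aif1 (1369489_at) reversed for striatum minus cortex (-0.084) and striatum minus hippocampus (-0.20, adjusted p = 0.00317). In the cortex the spread did not overlap between LiCl and chow vehicle arrays, so this setting can hardly separate spread from LiCl. The cause of these changes was not tested.

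Hippocampus minus cortex called 2 with centring, quantile normalization or dim probe sets left out, 3 with chow vehicle alone and 0 with injection vehicle alone. Injection vehicle alone called 0 for striatum minus cortex and 1 for striatum minus hippocampus, and P2ry12 was 0.082 for hippocampus minus cortex. P2ry12 was 0.037 for striatum minus hippocampus with quantile normalization and 0.10 with chow vehicle alone. With quantile normalization Cx3cr1 also passed for LiCl effects that differ between regions (adjusted p = 0.0284). Without the animal block striatum minus cortex called 2. With single arrays left out, injection vehicle minus chow vehicle called 2 to 7 in the hippocampus, with P2ry12 from 0.43 to 0.56 (5 of 10 fits lost its call), and 1 to 3 in the cortex.

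Within a region, same-numbered arrays of the groups compared share only a number (r from -0.539 to 0.235, at most 1 of 5 pairs over 0.1). With the replicate block, injection vehicle minus chow vehicle called 5, 3 and 1 members in hippocampus, cortex and striatum and LiCl in the cortex 3, and no count of members called changed. Leaving out the arrays high in choroid plexus genes or C1qa was chosen after seeing the data.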
